A study of Mus musculus with 3 samples.

Results

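The MHC class I presentation genes examined here were B2m, H2-K1, H2-D1, Tap1, Tap2, Tapbp, Psmb8, Psmb9, Psmb10 and Nlrc5. They were taken by name, as a list of 10 of the 32285 gene rows, and all 10 were present in each of 3 single-cell RNA-Seq libraries and tested in every comparison. Each library was made from the leukocytes of sciatic nerve, collected by flow sorting for the surface marker CD45, in NOD.AireGW/+ mice with neuropathy. A single mouse gave library 1, another gave library 2, and library 3 pooled 2 mice that were not told apart here. The mice are heterozygous for the GW allele of Aire, whose product lets the thymus display tissue antigens and so delete self-reactive T cells. On the diabetes-prone NOD strain this partial loss of function leads to spontaneous autoimmune attack on peripheral nerves. Female mice were used per the study's methods, and ages were not given in the sources used here. All 4 mice were neuropathic and belonged to 1 group, so cell types were compared within libraries and no effect of disease was tested. The question asked of these data was how the genes of class I presentation were distributed over the immune cells of the inflamed nerve.

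Cells were assigned to classes by UMIs (unique molecular identifiers, each counting 1 captured transcript) of fixed marker genes, none of which was one of the 10 genes. A cell needed UMIs of 3 of 6 T, NK, B or monocyte markers, 4 of 6 plasma markers or 4 of 8 macrophage markers. Dendritic cells needed 3 markers of 1 conventional subset, where a UMI of Flt3 or Zbtb46 counted as 1 of them. The T, NK, monocyte and dendritic gates also capped markers of some other classes. No cap on T, NK or B markers applied to the macrophage and plasma gates. Of 3848, 8256 and 1533 cells kept in libraries 1 to 3, 76.7%, 76.5% and 71.2% entered 1 of the 7 classes, and cells that met several gates were left out. The classes held 6773 T cells, 326 NK cells, 665 B cells, 130 plasma cells, 2040 macrophages, 146 monocytes and 278 dendritic cells. The macrophage class was very uneven, with 11, 2026 and 3 cells in libraries 1 to 3, and plasma cells numbered 38, 91 and 1, so both classes rested on libraries 1 and 2. The 11 macrophages of library 1 also stood apart in their markers, with 10402 macrophage-list and 4583 monocyte-list UMIs per 1000000 against 54983 and 561 in library 2. In library 3, T cells carried 1863 neutrophil-list UMIs per 1000000, against 3.03 and 1.74 in libraries 1 and 2. Schwann cell and fibroblast markers stayed between 0 and 6.29 per 1000000 UMIs in every class. Libraries 1 and 2 shared 36 cell barcodes, libraries 1 and 3 shared 7, and libraries 2 and 3 shared 14.

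MHC class I molecules display short peptides from inside the cell to CD8 T cells. Peptides are cut by the proteasome, whose immune form carries the catalytic subunits encoded by Psmb8, Psmb9 and Psmb10 in place of those encoded by Psmb5, Psmb6 and Psmb7. The TAP transporter, made of the Tap1 and Tap2 products, carries the peptides into the endoplasmic reticulum, where tapasin (Tapbp) holds the transporter next to an empty class I heavy chain (H2-K1 or H2-D1) paired with beta-2 microglobulin (B2m). NLRC5 is a transcriptional activator of class I genes, and interferons raise most genes of the pathway. Dendritic cells use the pathway to prime CD8 T cells.

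In the mm10 build with GENCODE vM21 annotation, 7 of the 10 genes lie on chromosome 17, in the MHC region and its flanks, B2m lies on chromosome 2, and Psmb10 and Nlrc5 lie on chromosome 8. Psmb9 and Tap1 lie on opposite strands, and their RefSeq start sites are 226 bases apart. RefSeq promoter windows of mm10, running from 250 bases before to 50 bases after the start site, were found for 8 of the 10 genes and are shown for 5 of them, since Tap1 shares its window with Psmb9, B2m, H2-K1 and H2-D1 encode the class I molecule, and Psmb8 is 1 of 2 subunit genes with their highest mean in dendritic cells. The windows are chr17:34187306-34187605 (plus strand) for Tap1, chr2:122147437-122147736 (plus strand) for B2m, chr17:34000298-34000597 (minus strand) for the first of 2 windows of H2-K1, chr17:35262844-35263143 (plus strand) for H2-D1, and chr17:34197945-34198244 (plus strand) for Psmb8. Capitals mark matches, on either strand, to 3 motifs of factors known to act in this pathway, namely an interferon-stimulated response element (GAAANNGAAA), a gamma-activated site (TTCNNNGAA) and a kappa-B site (GGGNNTTNCC).
Tap1: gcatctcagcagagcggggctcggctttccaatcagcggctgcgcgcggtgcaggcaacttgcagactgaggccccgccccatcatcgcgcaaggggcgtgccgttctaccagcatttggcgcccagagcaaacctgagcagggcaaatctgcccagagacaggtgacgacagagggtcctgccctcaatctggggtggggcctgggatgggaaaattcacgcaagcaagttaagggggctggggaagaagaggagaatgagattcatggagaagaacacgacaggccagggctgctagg
B2m: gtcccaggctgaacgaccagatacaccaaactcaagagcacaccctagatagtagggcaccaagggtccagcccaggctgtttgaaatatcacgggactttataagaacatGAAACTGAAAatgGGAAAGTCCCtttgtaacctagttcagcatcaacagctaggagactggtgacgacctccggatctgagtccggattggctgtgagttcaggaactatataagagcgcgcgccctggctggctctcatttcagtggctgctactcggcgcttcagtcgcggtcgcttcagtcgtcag
H2-K1: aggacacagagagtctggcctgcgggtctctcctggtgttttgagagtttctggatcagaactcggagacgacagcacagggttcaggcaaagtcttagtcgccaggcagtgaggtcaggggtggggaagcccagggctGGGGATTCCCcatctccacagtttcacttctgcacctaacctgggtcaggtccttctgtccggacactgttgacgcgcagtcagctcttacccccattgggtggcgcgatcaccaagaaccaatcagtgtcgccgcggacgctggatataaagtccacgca
H2-D1: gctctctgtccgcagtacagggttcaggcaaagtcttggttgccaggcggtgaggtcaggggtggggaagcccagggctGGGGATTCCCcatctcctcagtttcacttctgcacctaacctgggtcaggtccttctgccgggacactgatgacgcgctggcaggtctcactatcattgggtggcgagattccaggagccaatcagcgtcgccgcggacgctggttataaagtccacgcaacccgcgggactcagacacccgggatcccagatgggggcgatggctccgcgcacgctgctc
Psmb8: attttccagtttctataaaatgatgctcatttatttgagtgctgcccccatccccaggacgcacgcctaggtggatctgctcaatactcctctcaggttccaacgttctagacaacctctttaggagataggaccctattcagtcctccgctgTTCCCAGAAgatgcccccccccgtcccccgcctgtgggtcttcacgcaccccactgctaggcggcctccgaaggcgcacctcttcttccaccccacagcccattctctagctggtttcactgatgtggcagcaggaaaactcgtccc
The B2m window held the response element, starting 139 bases before the start site, and a kappa-B match, starting 126 bases before it. H2-K1 and H2-D1 held the same 10 kappa-B letters, starting 111 and 171 bases before their start sites, and Psmb8 held a gamma-activated match 97 bases before its start site. No match to the 3 motifs was found in the windows of Tap1, Psmb9, Tapbp and Psmb10, where the Tap1 and Psmb9 windows overlapped by 275 bases. Over 32817 promoter windows of the same length, 3.43% held the response element, 8.29% the gamma-activated site and 4.80% the kappa-B site. These matches describe letters only, and a site that differs from these strings in any fixed letter was not counted.

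Levels are given as CPM, UMIs of a gene per 1000000 UMIs of the summed cells of a class in a library, scaled by TMM factors, and are compared between classes and not between genes. Reads of H2-K1 and H2-D1 carry 2 uncertainties. Of the 50-base stretches of their longest coding transcripts, 8.79% and 14.3% also occurred in transcripts of other genes, most often other class I genes, against 0% to 2.00% for the other 8 genes, and counters such as Cell Ranger leave out reads that match several genes. NOD mice carry other alleles of H2-K1 than the C57BL/6 mouse of the reference genome, and the effect on its counts was not tested. No value of H2-K1 or H2-D1 should be read as an absolute level.

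**Figure D1:**
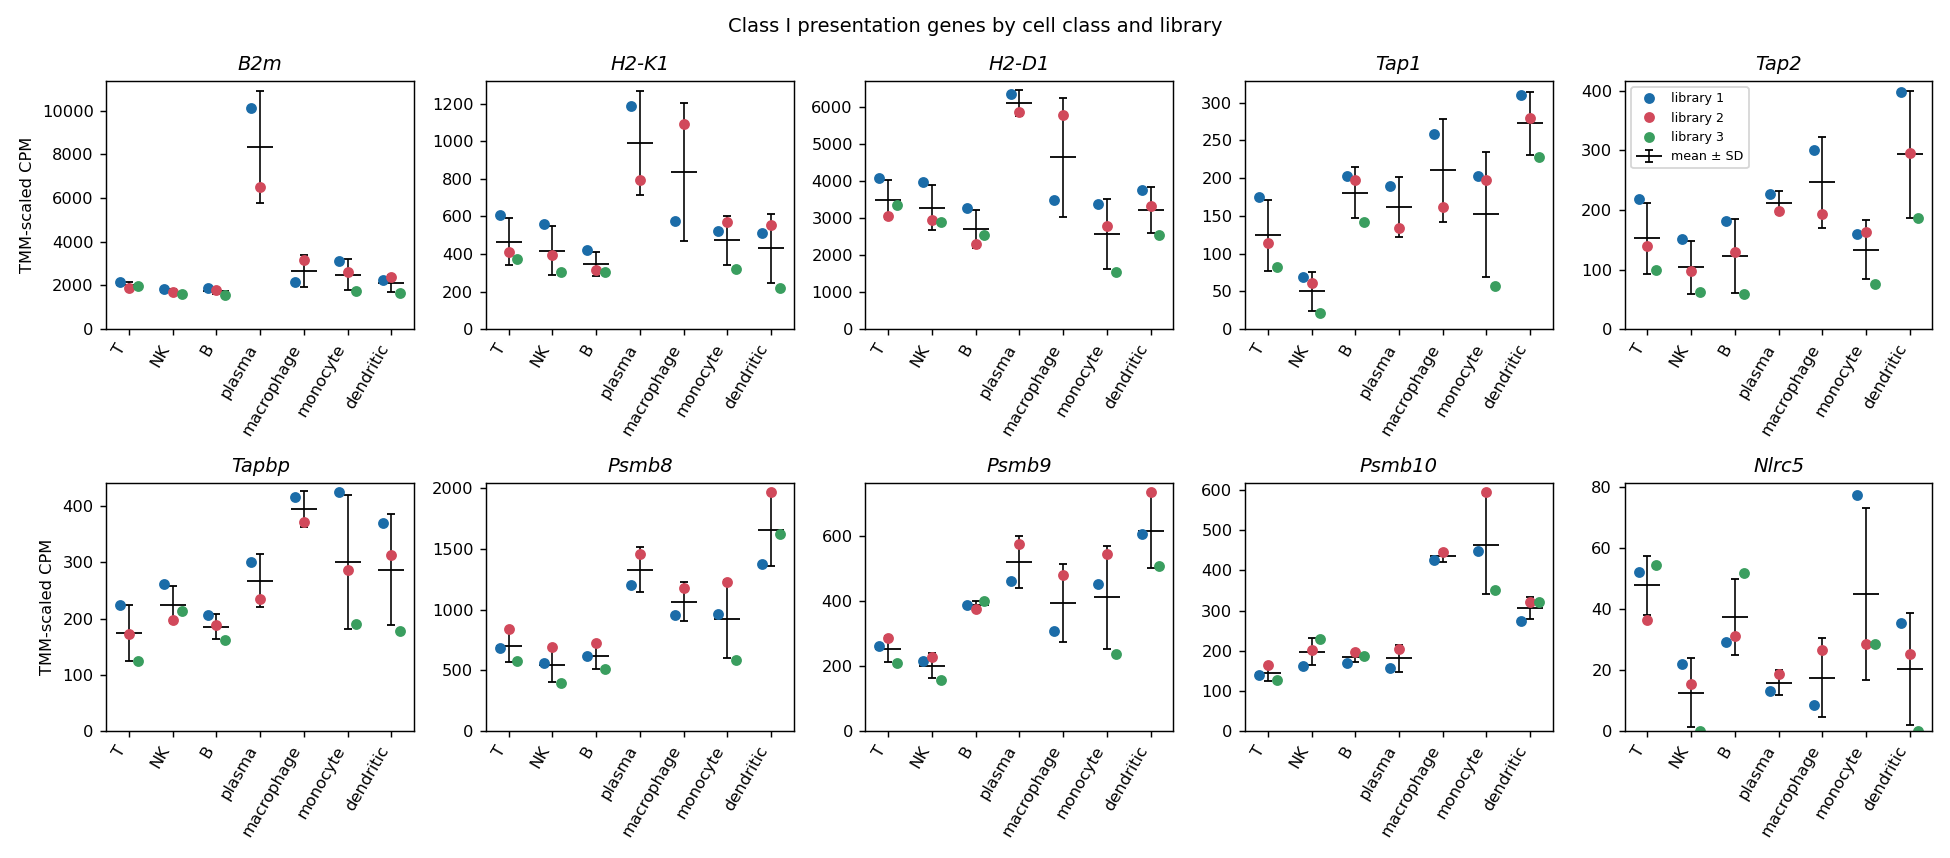
TMM-scaled CPM (vertical axes, each from 0) of the 10 genes in the 7 cell classes (horizontal axes), with 1 point per library and black bars for mean ± SD over libraries. B2m was highest in plasma cells, with 10137 and 6504 CPM, Tap1 lowest in NK cells, and Psmb8 and Psmb9 highest on average in dendritic cells.

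The genes of the pathway did not share 1 order of cell classes. The class I molecule genes B2m, H2-K1 and H2-D1 had their highest mean in plasma cells, at 8320 ± 2569, 992 ± 277 and 6117 ± 349 CPM (SD, n = 2 libraries). Tap1, Tap2, Psmb8 and Psmb9 had theirs in dendritic cells, at 273 ± 41.4, 293 ± 106, 1656 ± 296 and 616 ± 114 CPM (n = 3). Tapbp was highest in macrophages, at 395 ± 32.2 CPM (n = 2), Psmb10 in monocytes, at 465 ± 123 CPM (n = 3), and Nlrc5 in T cells, at 47.7 ± 9.77 CPM (n = 3). From the highest to the lowest class the mean varied by 5.44-fold for Tap1 and 4.86-fold for B2m, and by 2.27-fold for Tapbp. Most neighbours in these orders overlapped in their library values. All 6 neighbouring pairs overlapped for Tap2, Tapbp and Nlrc5, and 5 of 6 for H2-K1, H2-D1, Tap1, Psmb8 and Psmb9. The gaps without overlap were plasma cells above macrophages and T cells above B cells for B2m, macrophages above monocytes for H2-K1, plasma cells above macrophages for H2-D1, T cells above NK cells for Tap1, plasma cells above macrophages for Psmb8, B cells above T cells for Psmb9, and macrophages above dendritic cells and these above NK cells for Psmb10. The order depended on the scaling for plasma cells, whose TMM factors were 0.3945 and 0.4238. With UMI totals alone the class with the highest mean stayed the same for the other 8 genes, but H2-K1 and H2-D1 were highest in macrophages (777 ± 93.8 and 4393 ± 94.5 UMIs per 1000000, n = 2) and stood at 399.5 ± 91.9 and 2477 ± 16.2 in plasma cells (n = 2), and plasma cells became the lowest class for 7 of the 10 genes. Fewer or more transcripts of 1 gene among the other UMIs of a cell cannot be told apart from a change in total RNA per cell.

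Dendritic cells against T cells. The transporter, tapasin and the immunoproteasome genes were higher in dendritic cells, while no difference was called for the class I molecule genes. Of the 10 genes, 6 were called higher (Psmb9, Psmb8, Tap1, Psmb10, Tap2 and Tapbp) and 0 lower, where 20.9% of all 9314 genes tested were called higher and 19.6% lower. The median log2 difference of the 10 genes was 0.85, against -0.04 over all genes. Psmb9, a catalytic subunit, was measured at 605, 736 and 508 CPM in dendritic cells of libraries 1 to 3 and at 261, 287 and 209 CPM in T cells. All dendritic values lay above all T cell values, and the log2 difference was 1.28 ± 0.20 (SE; adjusted p = 1.35e-05, edgeR). Psmb8, another catalytic subunit, stood at 1378, 1967 and 1625 CPM in dendritic cells and 682, 839 and 578 CPM in T cells (log2 difference 1.25 ± 0.19, adjusted p = 1.08e-05). These groups did not overlap either. Tap1, one chain of the transporter, was measured at 310, 279 and 228 CPM against 175, 115 and 82.3 CPM (1.13 ± 0.20, adjusted p = 6.94e-05). The groups did not overlap, and library 3 was lowest in both. Tap2, the other transporter chain, had a log2 difference of 0.94 ± 0.17 (adjusted p = 0.0001125), and 398, 295 and 186 CPM against 218, 139 and 99.7 CPM, so the groups overlapped across libraries but not within them. Psmb10 reached 274, 321 and 322 CPM against 139, 164 and 127 CPM (1.07 ± 0.18, adjusted p = 4.41e-05), with no overlap. Tapbp reached 370, 313 and 178 CPM against 224, 173 and 125 CPM (0.75 ± 0.18, adjusted p = 0.001969), with overlap across libraries.

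For B2m, H2-K1 and H2-D1 no difference between dendritic and T cells was called, with log2 differences of 0.05 ± 0.21, -0.11 ± 0.25 and -0.13 ± 0.23. Each of the 3 genes had a higher value in dendritic cells of library 2 and a lower one in library 3. H2-K1 showed the widest spread, with 515, 556 and 220 CPM in dendritic cells and 607, 413 and 373 CPM in T cells. Nlrc5, the activator, had 25, 53 and 0 UMIs in dendritic cells, where a count of 0 allows up to 25.2 CPM in library 3. Its log2 difference of -0.73 ± 0.31 was not called (adjusted p = 0.06893), and it became a call without library 1 (-0.94) or library 2 (-1.13). The proteasome activator genes Psme1 and Psme2, whose products open the proteasome for peptide production, were both called higher, by 1.26 and 1.31 on the log2 scale. Of 43 other pathway genes tested, 17 were called higher and 10 lower. The listed genes with the largest differences were Fcgrt, an antibody transport receptor of class I fold (log2 difference 3.69, adjusted p = 1.795e-10), and Ciita, the activator of MHC class II genes (3.65, adjusted p = 6.929e-12). On the lower side they were the guanylate-binding protein genes Gbp7 (-2.58) and Gbp4 (-2.55). The dendritic means of Gbp7 and Gbp4 were 13.7 and 6.02 CPM, so near the floor that these sizes are uncertain. Without library 2 the call of Tapbp was lost (log2 difference 0.54, adjusted p = 0.0633), and with cells thinned to 1000 UMIs the calls of Tap2 and Tapbp were lost (0.34 and 0.33). The strict gate, which left out cells with any UMI of a marker of another class, kept 13 dendritic cells in library 2, of which 12 were mature (63 of 212 in the main class), and too few in the others for a sum. With this single sum, assumed to vary like the other classes, the log2 differences were 0.70 for Psmb9 and 0.60 for Psmb10, which lost their calls, and 1.43 for H2-K1 and 0.93 for B2m, which gained them. Dendritic cells were more deeply sampled, with medians of 13928, 10352.5 and 6598 UMIs per cell against 3768, 2754 and 1878 in T cells.

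**Figure D2:**
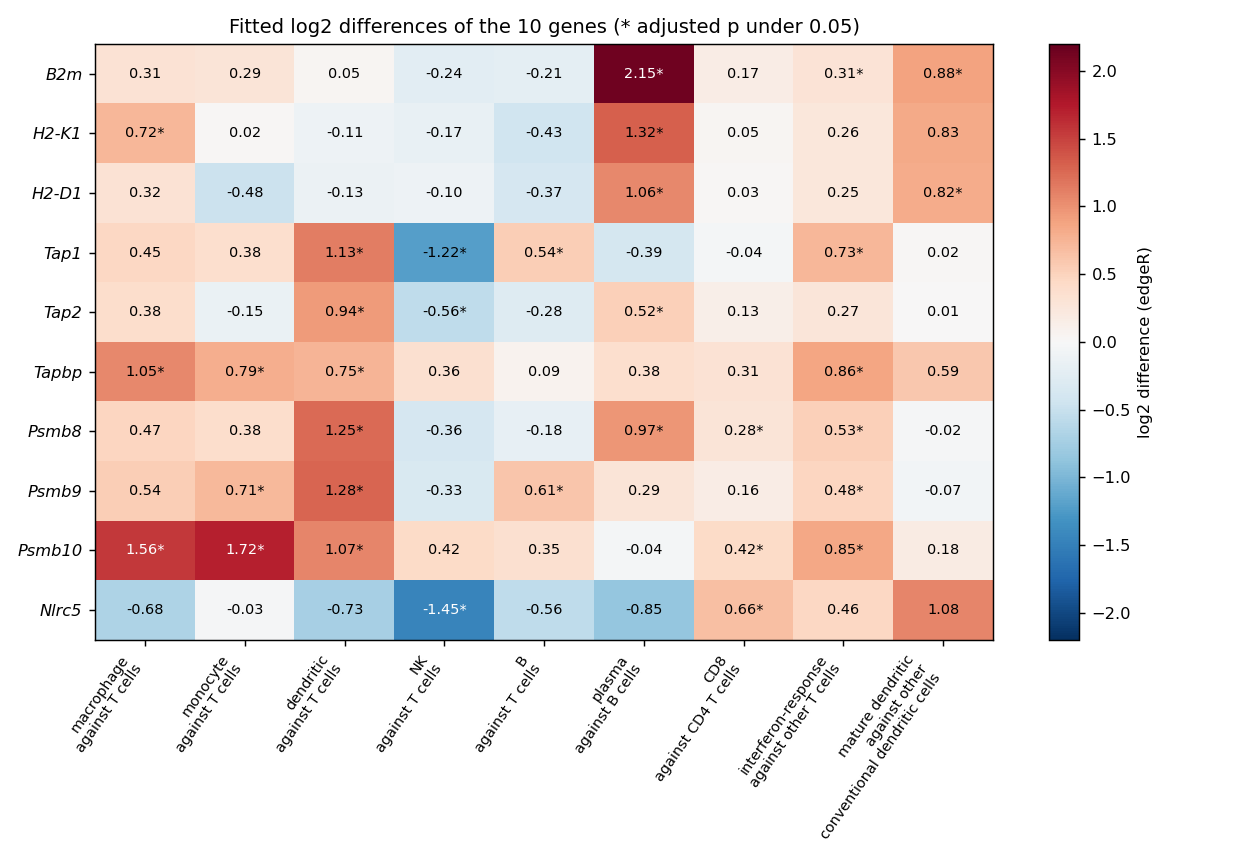
Fitted log2 differences (colour and numbers) of the 10 genes (rows) in the 9 comparisons (columns), with asterisks at adjusted p under 0.05 in edgeR's quasi-likelihood test. The 6 asterisks of the dendritic column fall on the transporter, tapasin and proteasome genes, and those of the plasma column, with TMM scaling, include all 3 class I molecule genes.

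Macrophages and monocytes against T cells. In both myeloid classes the strongest difference was that of Psmb10, and Tapbp was also higher. Macrophages had 3 of the 10 genes called higher (Psmb10, Tapbp and H2-K1) and 0 lower, where 25.5% of all genes were called higher and 22.5% lower. Monocytes also had 3 genes called higher (Psmb10, Tapbp and Psmb9) and 0 lower, where 17.5% of all genes were called higher and 15.3% lower. For Psmb10 the macrophage values were 426 and 447 CPM in libraries 1 and 2 and the monocyte values 448, 595 and 351 CPM. All of them were above the T cell values of 139, 164 and 127 CPM, and the log2 differences were 1.56 ± 0.21 (adjusted p = 8.956e-07) and 1.72 ± 0.19 (adjusted p = 1.097e-07). Tapbp was measured at 418 and 372 CPM in macrophages and 426, 286 and 190 CPM in monocytes, with log2 differences of 1.05 ± 0.21 (adjusted p = 0.0001706) and 0.79 ± 0.19 (adjusted p = 0.002543). Within every library both classes were above T cells in Tapbp.

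H2-K1 was called higher in macrophages at a log2 difference of 0.72 ± 0.28 (adjusted p = 0.03783), but the libraries disagreed. Library 1 had 576 CPM in its 11 macrophages against 607 CPM in T cells, and library 2 had 1095 CPM against 413 CPM. Without library 2 the difference was -0.33 (adjusted p = 0.493), and without library 3 the call was lost (0.63, adjusted p = 0.101). B2m and H2-D1 split in the same manner, at 2146 and 3507 CPM in macrophages of library 1 and 3165 and 5790 CPM in library 2, and neither was called. Without TMM their log2 differences turned from 0.31 and 0.32 to -0.065 and -0.072, and with cells thinned to -0.025 and -0.072. Leaving out library 1 made H2-D1 a call (0.59, adjusted p = 0.0284). Nlrc5 had 1 and 306 UMIs in macrophages of libraries 1 and 2, and its log2 difference of -0.68 ± 0.32 was not called, though it was without library 1 (-0.79) or library 3 (-0.78). Without library 2 the call of Tapbp was lost in macrophages (0.73, adjusted p = 0.119), and so was that of Psmb9 in monocytes (0.40, adjusted p = 0.2).

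Psmb9 in monocytes was measured at 452, 546 and 237 CPM, with a log2 difference from T cells of 0.71 ± 0.21 (adjusted p = 0.009834). Library 3 was lowest, and there the difference was 0.18. H2-D1, at 3389, 2801 and 1535 CPM in monocytes, was below T cells in every library, and its log2 difference of -0.48 ± 0.23 became a call without library 1 (-0.60) or library 2 (-0.83), with cells thinned to 1000 UMIs (-1.06), with 1 more marker required (-0.69), without TMM (-0.73) and with no low-count filter (-0.66). With cells thinned to 1000 UMIs the Tapbp and Psmb9 differences of monocytes fell to 0.42 and 0.17 and lost their calls, and so they did with 1 more marker required (0.55 and 0.47). Monocytes also carried 1618, 5263 and 2055 macrophage-list UMIs per 1000000, and 2383, 681 and 2690 UMIs per 1000000 of the interferon-response list, against 519, 322 and 589 in T cells. The part of these signals in the result was not tested. Psme1 and Psme2 were called higher in both classes, with log2 differences from 0.70 to 1.26. Of the 43 other pathway genes tested, 21 were called higher and 6 lower in macrophages, and 18 and 7 in monocytes. Ifngr2 had the largest difference above T cells in both, at 3.42 and 3.15 on the log2 scale, while Ifngr1, its partner in the interferon-gamma receptor, was lower (-1.82 and -1.93). Ciita was higher in macrophages (2.92), Gbp2, an interferon-induced GTPase gene, in monocytes (2.69), and Cd1d1, which encodes a lipid-presenting class I-like molecule, was lower in both (-4.57 and -3.85). Cd1d1 means were 0.35 CPM in macrophages and 3.16 CPM in monocytes, so near the floor that these sizes are uncertain.

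NK cells against T cells. Both transporter genes and Nlrc5 were lower in NK cells, whose function is to kill cells that have lost class I molecules. The 10 genes gave 0 calls on the higher side and 3 on the lower side, where 5.84% of all genes were called higher and 11.0% lower. Tap1 was measured at 68.7, 60.9 and 20.8 CPM in NK cells, from 84, 51 and 4 UMIs, and at 175, 115 and 82.3 CPM in T cells. Every NK value was below every T cell value, and the log2 difference was -1.22 ± 0.23 (adjusted p = 0.0003159). Nlrc5 had 22.1, 15.5 and 0 CPM in NK cells, from 27, 13 and 0 UMIs, against 52.1, 36.5 and 54.5 CPM in T cells (log2 difference -1.45 ± 0.35, adjusted p = 0.004919), and the 0 of library 3 allows up to 15.5 CPM. Again the groups did not overlap. Tap2 was lower within every library, at 151, 97.9 and 62.5 CPM against 218, 139 and 99.7 CPM, and its log2 difference of -0.56 ± 0.18 (adjusted p = 0.03728) lost its call when any 1 library was left out (adjusted p = 0.123, 0.0863 and 0.0831 without libraries 1, 2 and 3). B2m, H2-K1, H2-D1, Psmb8 and Psmb9 had log2 differences between -0.36 and -0.10, and Tapbp and Psmb10 of 0.36 and 0.42, none of them called. Under the strict gate, which kept 17 and 11 NK cells in libraries 1 and 2, B2m (-0.64), H2-D1 (-0.59) and Psmb8 (-1.22) were called lower, and with cells thinned Psmb8 was too (-0.57). Psmb9, which shares its promoter region with Tap1, had a log2 difference of -0.33 ± 0.20 where Tap1 had -1.22, and the gap between the genes was not tested. Among the other pathway genes 1 was called higher and 11 lower. Irf8, an interferon-regulated transcription factor, was higher by 3.80, and Iigp1, an interferon-inducible GTPase, and Ifngr2 were lower (-5.78 and -4.33). The NK means of Iigp1 and Ifngr2 were 0.40 and 0.55 CPM, so near the floor that the sizes of their differences are uncertain.

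B cells against T cells. Tap1 and Psmb9 were called higher in B cells, giving 2 of the 10 genes higher and 0 lower, where 14.9% of all genes were called higher and 16.8% lower. Psmb9 was measured at 388, 375 and 401 CPM in B cells, above all 3 T cell values of 261, 287 and 209 CPM (log2 difference 0.61 ± 0.20, adjusted p = 0.02061). The Tap1 values of 202, 198 and 142 CPM overlapped those of T cells across libraries, with a log2 difference of 0.54 ± 0.20 (adjusted p = 0.0455). Both calls were weak. That of Tap1 was lost without any 1 library (0.65, 0.30 and 0.39 without libraries 1, 2 and 3) and that of Psmb9 without library 1 (0.48, adjusted p = 0.125) or library 3 (0.39, adjusted p = 0.175). H2-K1 and H2-D1 were lower in B cells in every library, with log2 differences of -0.43 ± 0.25 and -0.37 ± 0.23 that were not called. The split of calls depended on the settings. Without TMM it was 0 of the 10 genes higher and 3 lower (H2-K1 -0.59, H2-D1 -0.54 and B2m -0.37). Over all 9314 genes tested there, 1025 were called higher and 1990 lower. With 1 more marker required it was also 0 and 3 (H2-K1 -0.58, H2-D1 -0.54 and Nlrc5 -0.75). Of all 10196 genes tested with that gate, 1174 were called higher and 1976 lower. Without library 1 H2-D1 was called lower too (-0.55). Among 43 other pathway genes 8 were called higher and 8 lower. Ciita (3.94) and Irf8 (2.59) had the largest differences above T cells, and Ifngr1 (-2.45) and Socs1, a brake on cytokine signalling (-1.06), the largest below.

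Plasma cells against B cells. B2m was higher in plasma cells, the antibody-secreting descendants of B cells, under both scalings, while the calls of the other genes depended on the scaling. With TMM the calls were 5 of the 10 genes higher (B2m, H2-K1, H2-D1, Psmb8 and Tap2) and 0 lower, and with UMI totals alone they were 1 higher (B2m) and 6 lower. With TMM 18.9% of all 9314 genes tested were called higher and 20.9% lower. With UMI totals alone 441 of the 9314 genes were called higher and 6410 lower. On the TMM scale B2m was measured at 10137 and 6504 CPM in plasma cells of libraries 1 and 2 and at 1883, 1775 and 1583 CPM in B cells (log2 difference 2.15 ± 0.24, adjusted p = 2.122e-07). H2-K1 had 1188 and 796 CPM against 423, 316 and 304 CPM (1.32 ± 0.28, adjusted p = 0.0007087), and H2-D1 had 6364 and 5870 CPM against 3290, 2314 and 2540 CPM (1.06 ± 0.26, adjusted p = 0.002426). For none of the 3 genes did the groups overlap. Psmb8 had 1199 and 1458 CPM against 615, 726 and 511 CPM (0.97 ± 0.21, adjusted p = 0.0009263), also without overlap. Tap2, at 226 and 199 CPM against 181, 130 and 58.2 CPM, passed by little (0.52 ± 0.20, adjusted p = 0.0448) and lost its call without any 1 library (0.65, 0.35 and 0.43 without libraries 1, 2 and 3).

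Tap1, Tapbp, Psmb9, Psmb10 and Nlrc5 were not called between plasma and B cells, with log2 differences of -0.39, 0.38, 0.29, -0.04 and -0.85. Immunoglobulin transcripts took 61.8% and 53.6% of the UMIs of plasma cells in libraries 1 and 2, so the scale matters here. With UMI totals in place of TMM the median of all genes shifted from -0.20 to -1.61, B2m stayed higher at 0.68, and H2-K1, H2-D1 and Psmb8 turned to -0.15, -0.37 and -0.47. The 6 genes then called lower were Tap1 (-1.85), Tap2 (-0.91), Tapbp (-1.08), Psmb9 (-1.14), Psmb10 (-1.47) and Nlrc5 (-2.29), all but Nlrc5 and Tap1 nearer to B cells than the median of all genes. With immunoglobulin genes left out of the sums, an alternative chosen after seeing the data, 4 of the 5 calls held and that of Tap2 was lost (adjusted p = 0.0521). With cells thinned to 1000 UMIs 1 gene, B2m, was called. With TMM all 6 listed genes of peptide loading and protein folding in the endoplasmic reticulum were called higher, Hspa5 by 2.71 and Calr by 2.33 on the log2 scale, and 4 of 5 constitutive proteasome genes were called higher. Of the 43 other pathway genes 16 were higher and 16 lower, with Ciita (-6.60) and Ifngr2 (-4.35) the farthest below B cells. Plasma cell means of Ciita and Ifngr2 were 1.04 and 4.74 CPM, so near the floor that these sizes are uncertain.

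**Figure D3:**
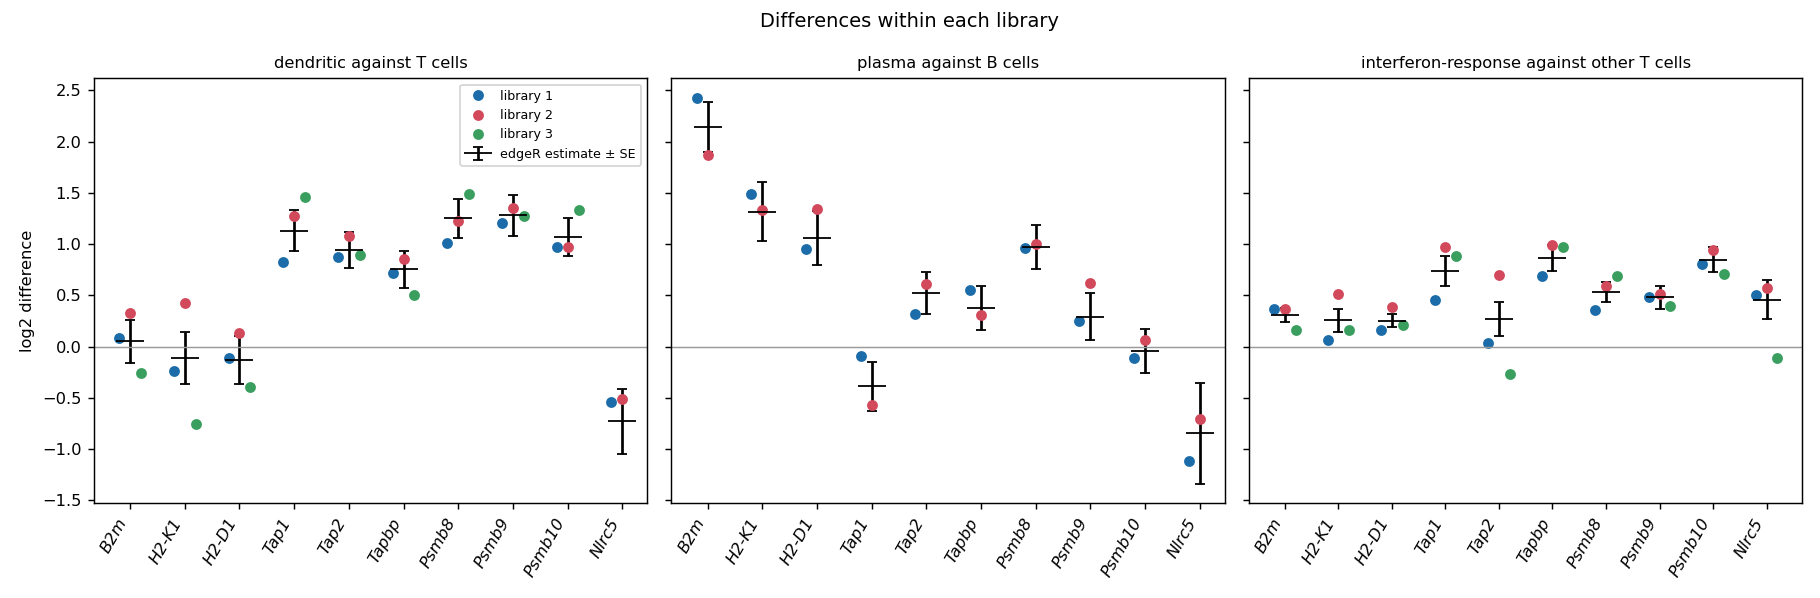
Log2 differences (vertical axis) of the 10 genes (horizontal axis) within each library, as points, with edgeR's estimate ± SE in black, in 3 comparisons. The library 3 value of Nlrc5 in dendritic cells, from 0 UMIs, is not drawn. Points of the 6 called genes lie above 0 in every library in the dendritic and interferon-response panels, and B2m leads the plasma panel at 2.43 and 1.87.

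CD8 against CD4 T cells. Within T cells, those with UMIs of Cd8a or Cd8b1 and none of Cd4 were compared with those of the opposite kind. Nlrc5, Psmb10 and Psmb8 were called higher in CD8 T cells, which made 3 of the 10 genes higher and 0 lower, where 6.71% of 10297 genes tested were called higher and 7.92% lower. Nlrc5 stood at 78.0, 54.7 and 79.2 CPM in CD8 T cells, from 372, 238 and 40 UMIs, and at 47.8, 36.3 and 46.9 CPM in CD4 T cells. The groups did not overlap, and the log2 difference was 0.66 ± 0.12 (adjusted p = 0.001423). Psmb10, at 182, 231 and 222 CPM against 145, 185 and 118 CPM, was higher within every library (0.42 ± 0.11, adjusted p = 0.0159). Psmb8 differed by 0.28 ± 0.08 (adjusted p = 0.02381), with 881, 1135 and 889 CPM against 751, 972 and 659 CPM. The Psmb8 call was lost without library 2 or 3 (adjusted p = 0.145 and 0.127) and that of Psmb10 without library 2 (adjusted p = 0.0921), and DESeq2 left only Nlrc5 called. The other 7 genes had log2 differences from -0.04 to 0.31, of which Tapbp, the highest, was a call without library 1 (0.51). Among 44 other pathway genes tested 5 were called higher and 7 lower. Tapbpl, which encodes a peptide editor related to tapasin (0.86), and Erap1, an enzyme that trims peptides for class I molecules (0.80), were among those higher, and Iigp1 (-1.68) and Ifngr2 (-1.25) among those lower.

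Interferon-response T cells against other T cells. T cells with UMIs of at least 2 of 9 measured interferon-response markers after thinning to 1000 UMIs were compared with T cells holding none. The interferon-response cells numbered 163, 146 and 46 in libraries 1 to 3. T cells with 1 marker, 355, 376 and 178 of them, were in neither group. None of the markers was one of the 10 genes, and 98, 73 and 27 of the interferon-response cells were at the minimum of 2 markers. Of the 10 genes 6 were called higher (Tapbp, Psmb10, Tap1, Psmb8, Psmb9 and B2m) and 0 lower, where 2.58% of 8267 genes tested were called higher and 0.351% lower. Tapbp was measured at 394, 396 and 267 CPM in interferon-response cells and at 244, 199 and 136 CPM in other T cells, with no overlap (log2 difference 0.86 ± 0.12, adjusted p = 0.001351). Psmb10 was measured at 271, 368 and 237 CPM against 155, 191 and 144 CPM (0.85 ± 0.12, adjusted p = 0.001541), also with no overlap. Psmb8 had 1032, 1499 and 1096 CPM against 804, 998 and 682 CPM (0.53 ± 0.09, adjusted p = 0.005838), and here too all values of interferon-response cells were the higher ones. Tap1, at 272, 260 and 178 CPM against 198, 132 and 95.9 CPM, overlapped across libraries but was higher within each (0.73 ± 0.15, adjusted p = 0.01459). Psmb9 differed by 0.48 ± 0.11 (adjusted p = 0.03527) and B2m by 0.31 ± 0.07 (adjusted p = 0.04219).

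H2-D1, H2-K1, Nlrc5 and Tap2 were not called between interferon-response and other T cells, with log2 differences of 0.25, 0.26, 0.46 and 0.27 and unadjusted p of 0.00232, 0.0442, 0.0333 and 0.136. Without library 1 H2-D1 was called (0.30, adjusted p = 0.000726). In Tap2 and Nlrc5 library 3 went the other way, at -0.27 and -0.11. Of the 42 other pathway genes tested 13 were called higher and 0 lower. They included both Psme1 (0.60) and Psme2 (0.45), while 0 of 6 genes of peptide loading and 0 of 5 constitutive proteasome genes were called. Stat2, a transducer of interferon signals (2.14), and H2-T24, a class I-like gene (2.22), had the largest differences. The calls of Tap1 and B2m were lost without library 2 (adjusted p = 0.113 and 0.372) or library 3 (0.0786 and 0.151), that of Psmb9 without any 1 library (0.155, 0.221 and 0.122 for libraries 1, 2 and 3), and that of Psmb8 without library 3 (0.105). In library 1 the interferon-response cells also carried 1553 monocyte-list UMIs per 1000000 against 235 in other T cells. In libraries 2 and 3 they carried 439 against 206 and 119 against 125. Macrophage-list UMIs were 231 against 45.5, 289 against 294 and 9.17 against 11.0 in libraries 1 to 3. Neutrophil-list UMIs were 9.86 against 1.71, 0 against 1.81 and 18.3 against 2669. The part of these transcripts in the result was not tested.

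Dendritic subsets. Mature dendritic cells, which carry markers of migration such as Ccr7 and Fscn1, were compared with other conventional dendritic cells, with sums of 10 and 63 mature cells in libraries 1 and 2. B2m and H2-D1 were called higher, 2 of the 10 genes, and 0 were called lower, where 6.74% of 5265 genes tested were called higher and 2.87% lower. B2m had 3107 and 4623 CPM in mature cells and 2197, 1949 and 1394 CPM in the others (0.88 ± 0.21, adjusted p = 0.01436), and H2-D1 had 4873 and 6461 CPM against 3711, 2729 and 2529 CPM (0.82 ± 0.21, adjusted p = 0.02105). Neither gene overlapped between the groups. H2-K1 had a like difference, 0.83 ± 0.26, that was not called (adjusted p = 0.06138). The transporter and proteasome genes Tap1, Tap2, Psmb8, Psmb9 and Psmb10 had differences between -0.07 and 0.18, and libraries 1 and 2 went opposite ways in each of them. In all 10 genes the difference was larger in library 2 than in library 1. Under DESeq2 neither B2m nor H2-D1 was called (adjusted p = 0.155 and 0.219). The other class I heavy chain genes H2-Q7 (1.45) and H2-Q4 (1.27) were called higher and Pdia3, an oxidoreductase of the peptide loading complex, lower (-0.91), within 4 of 36 other pathway genes higher and 1 lower.

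The dendritic subsets also differed in level among themselves, given here as values with no test. In libraries 1 and 2, XCR1-type dendritic cells (cDC1), which specialise in presenting antigen to CD8 T cells, had 1512 and 2150 CPM of Psmb8, 674 and 806 CPM of Psmb9 and 314 and 288 CPM of Tap1. Plasmacytoid dendritic cells, kept outside the dendritic class, had 699 and 753 CPM of Psmb8, 307 and 263 CPM of Psmb9 and 118 and 53.0 CPM of Tap1, below both cDC1 values in each gene. The single sum of 20 cDC2 cells, in library 2, lay between with 1073 CPM of Psmb8, 346 CPM of Psmb9 and 213 CPM of Tap1. For B2m the 2 cDC1 values of 2141 and 2007 CPM and the plasmacytoid values of 2073 and 1724 CPM overlapped.

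Immunoproteasome subunits against their constitutive counterparts. UMI ratios within a sum do not depend on the scaling, and they were set side by side between classes with no test. The ratio of Psmb8 to Psmb5 was highest in dendritic cells, at 5.82, 6.67 and 6.40, and lowest in NK cells, at 3.15, 3.47 and 1.95. Each dendritic value was above each T cell value (4.58, 4.34 and 3.33). The ratio of Psmb9 to Psmb6 was highest in B cells, at 3.44, 2.78 and 2.48, followed by dendritic cells with a geometric mean of 2.27, and it was 1.95, 1.41 and 1.30 in T cells. The ratio of Psmb10 to Psmb7 followed another order. It was high in macrophages, at 8.50 (from 11 cells with 6 Psmb7 UMIs) and 6.17 in libraries 1 and 2. Monocytes were high too, at 4.33, 6.54 and 6.17, from 24, 35 and 6 Psmb7 UMIs. These classes swapped places between libraries 1 and 2. Dendritic cells (2.47, 2.52 and 3.80) did not stand apart from T cells (2.79, 2.90 and 2.91). Plasma cells were lowest at 1.46 and 1.62. The ratio in B cells was 4.91, 4.86 and 4.83, from 58, 35 and 6 Psmb7 UMIs, too few in library 3 to judge how constant it was.

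**Figure D4:**
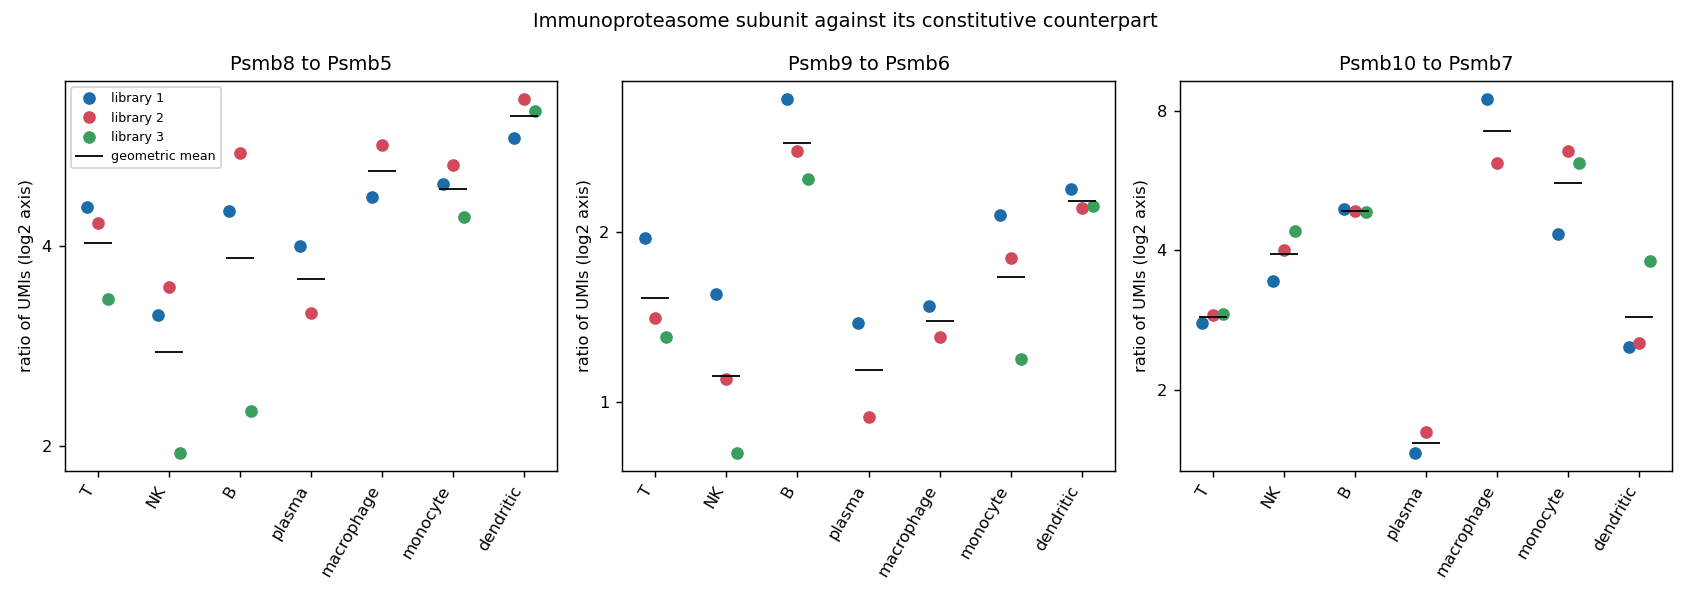
Ratio of UMIs of each immunoproteasome subunit gene to its constitutive counterpart (vertical axes, log2 scale) in the 7 classes (horizontal axes), 1 point per library and a bar for the geometric mean. Dendritic cells lead for Psmb8 to Psmb5, and B cells for Psmb9 to Psmb6, while for Psmb10 to Psmb7 macrophages and monocytes overlap at the top.

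Across the 19 sums of class and library, which share libraries and scaling, the log2 CPM of Psmb8 and Psmb9 had a Pearson correlation of 0.865, that of H2-K1 and H2-D1 of 0.854, and that of the neighbours Tap1 and Psmb9 of 0.820. Psmb10 went less with the other subunits (0.461 with Psmb8 and 0.430 with Psmb9). Nlrc5 had correlations between -0.128 and 0.316 with the other 9 genes, including 0.111 with B2m, 0.309 with H2-K1 and 0.080 with H2-D1. However, Nlrc5 had 0 UMIs in NK and in dendritic cells of library 3, 1 in macrophages of library 1 and 3 in monocytes of library 3. How far such low counts set its correlations was not tested. Of 2516 other genes with a mean of at least 50 CPM, those most like the mean of B2m, H2-K1 and H2-D1 were Ubxn4 (0.894), Slc39a7 (0.877) and Tmem59 (0.869). Ier5 (0.904), Taok3 (0.872) and Psmd4 (0.841) were most like Tap1, Tap2 and Tapbp. Akr1a1 (0.940), Pepd (0.925) and Cst3 (0.915) were most like the immunoproteasome genes, and Atf1 (0.827), Hnrnpul1 (0.777) and Nr3c1 (0.756) most like Nlrc5. All these correlations rest on TMM scaling, under which plasma cells were highest in B2m, H2-K1 and H2-D1. With UMI totals alone H2-K1 and H2-D1 were highest in macrophages, and the correlations were not computed on that scale.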

How the data were processed

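Single-cell 5′ RNA-Seq of CD45+ cells was analysed for 3 libraries. The deposited values were unnormalised UMI counts, which the authors made by mapping to mm10 with Cell Ranger (per the file headers, 5.0.1 for library 1 and 6.1.2 for libraries 2 and 3). Library 1 came with no gene list among the files used here and took the row order of the others, with which its row totals had a Spearman correlation of 0.9501 and 0.9287 across genes (0.3554 and 0.3241 when shifted by 1 row). The libraries held 22983991, 55120460 and 3399733 UMIs in 3926, 8311 and 1533 cells. The study's limits on cells were applied (at least 300 UMIs, at most 5000 genes and at most 20% mitochondrial UMIs). No doublet caller was run, and 190, 1138 and 9 cells that met several gates were left out. The class names are rebuilt from markers and are not the authors'. The 10 genes, the pathway list of 45 genes and the markers were chosen with earlier results of these data known.

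Counts were summed per library and class, leaving out sums of under 10 cells, and tested with edgeR 4.0.16 (quasi-likelihood, TMM, filterByExpr, Benjamini-Hochberg over all genes tested) in R 4.3.3, with the library as a block, since the classes of a library come from the same mice. Library deviations from class means had correlations of 0.0937 to 0.63 between classes, above 0.1 in 29 of 30 pairs. The 7 classes shared 1 fit. A call needed an adjusted p under 0.05, and SEs were derived from the F statistic. Named were the 10 genes, in each comparison the 2 other pathway genes with the largest difference in each direction among those called and alike in every library, and the 3 genes most like each of 4 gene groups. Psme1 and Psme2 and the list counts were named outside this rule after their values were seen. Floors of 0 counts use 3 UMIs and cover counting error only. Simulated counts were drawn a single time per comparison, from a profile common to all classes and with no library effect. In the dendritic comparison 62, 73 and 65 genes were changed 1.5-, 2- and 4-fold, while 20.9% of genes were called higher and 19.6% lower in the data. The shares below need not hold for the real counts. On simulated counts of the dendritic comparison (9314 genes), 54.8% of 2-fold and 92.3% of 4-fold changes were recovered, and 6.42% of calls were false. For the macrophage comparison 43.9%, 87.2% and 23.3% were found, and for mature dendritic cells (5265 genes) 4.76%, 69.0% and 7.02%. For 1.5-fold changes the dendritic comparison recovered 3.23%. In monocytes 24.6% of 2-fold changes were recovered. The share of false calls was 12.3% for plasma cells, 10.6% for CD8 T cells, 10.3% for NK cells and 10.3% for B cells. It was 6.35% for monocytes and 2.04% for interferon-response T cells. Shares in all comparisons but this last one lay above the threshold of 0.05.

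Alternatives were DESeq2 1.42.0, no low-count filter, UMI totals without TMM, no library block, a stricter gate, cells thinned to 1000 UMIs and each library left out. A gate with 1 more marker and sums without immunoglobulin genes were added after seeing the data.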

Additional observations from a re-analysis of the deposited data

How the results depend on the processing

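Of 90 tests of the 10 genes in 9 comparisons, 33 were called, and 5 of these calls held under every alternative that could be run. These were Psmb10 in macrophages and in monocytes, Tap1 and Psmb8 in dendritic cells, and B2m in plasma cells. Outside the runs without 1 library, numbers of the 10 genes called changed by over 1.5 times as follows. The runs without 1 library are listed last, whatever the change. With no replicate block, that is without the pairing of classes by library, 21 calls were lost in all. Genes called were 1 in monocytes (3 in the main analysis), 1 in NK cells (3) and 0 in B cells (2). They were also 0 between CD8 and CD4 T cells (3), 0 in interferon-response T cells (6) and 0 in mature dendritic cells (2). Over all genes tested, calls in the same order fell to 0.772, 0.534, 0.593, 0.138, 0.372 and 0.536 times the main number. With DESeq2, 5 genes were called in macrophages (3), 1 in B cells, 1 in CD8 T cells and 0 in mature dendritic cells. All-gene calls were 0.795, 0.781, 0.506 and 0.221 times the main number there. With no low-count filter, or without immunoglobulin genes, 1 was called in B cells (1.29 and 0.98 times the main number over all genes). Without TMM, 1 was called in CD8 T cells (1.03 times the main number over all genes). The strict gate gave 2 and thinned cells 3 in interferon-response T cells, and thinned cells 1 in plasma cells (5). All-gene calls were 0.372, 0.496 and 0.207 times the main number there. Leaving out 1 library gave 1 to 5 calls in macrophages, 0 to 1 in B cells, 1 to 4 in CD8 T cells and 2 to 6 in interferon-response T cells. It gave 3 to 4 in monocytes, 6 to 7 in dendritic cells, 2 in NK cells and 4 in plasma cells. All-gene calls in the first group were 0.255 to 1.11, 0.662 to 0.952, 0.546 to 0.849 and 0.785 to 1.44 times the main number. In the second group they were 0.767 to 0.918, 0.646 to 0.992, 0.669 to 0.874 and 0.562 to 1.01 times. The number of genes tested also differed between settings.

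Among differences called under either setting, the sign turned for plasma cells without TMM (H2-K1 -0.15, H2-D1 -0.37, Tap2 -0.91, Tapbp -1.08, Psmb8 -0.47 and Psmb9 -1.14, with the median of all genes at -1.61), for Tap1 in thinned B cells (-0.078), for H2-K1 in macrophages without library 2 (-0.33, and up to 1.07 without another library), and for H2-K1 in dendritic cells under the strict gate (1.43). In 52 further cases, over 25 differences called under neither setting, the sign also turned, B2m, H2-D1, Tap1 and Tap2 in macrophages among them. Without TMM the median of all genes also shifted to -0.60 in macrophages, -0.47 in monocytes, -0.36 in dendritic cells and -0.17 in B cells, and the share of calls on the higher side fell from 53.2% to 24.9% in macrophages, 53.2% to 35.3% in monocytes, 51.7% to 30.6% in dendritic cells, 47.0% to 34.0% in B cells, 47.5% to 6.44% in plasma cells and 45.9% to 27.5% in CD8 T cells. The causes were not tested. Over all genes, the number called ranged from 0.138 to 1.90 times the main number. The strict gate left too few B cells, plasma cells, monocytes and, beside mature dendritic cells, other conventional dendritic cells for a value, and 1 sum of macrophages and of dendritic cells, and mature dendritic cells could not be compared with 1 more marker, or without library 1 or 2. A class left with 1 sum was assumed to vary like the others. Depth limits Nlrc5 most, with 0 to 3 UMIs in 4 class sums.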
